A study of Saccharomyces cerevisiae with 7 samples.

Results

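Chromosomes I and VI are the 2 shortest chromosomes of Saccharomyces cerevisiae, and their meiotic Spo11 hits were described here in 1 kb bins. A bin was included if any library had a hit in it and if it lay more than 20 kb from either chromosome end and more than 10 kb from the centromere, so that no measured density entered the choice. This gave 369 bins, 161 on I and 208 on VI, of 10520 bins treated alike on 15 chromosomes and of 11643 bins with a hit on all 16 chromosomes. The maps came from CC-seq, covalent complex sequencing, which enriches DNA with a protein bound to its 5′ end and records the position and strand of that end. SPO11+ cells of strain SK1 lacking SAE2 were sampled after 6 h of meiosis, in 5 biological replicates, the fifth of which was the sum of 2 technical replicates. The other group was 1 library from spo11-Y135F cells, also of SK1 and also lacking SAE2, in which Spo11 has phenylalanine in place of its catalytic tyrosine. The absence of Sae2, shared by all libraries, keeps Spo11 bound to the ends that it cuts, so that the maps hold unprocessed breaks. Chromosome III carries the artificial his4::LEU2 and leu2::hisG loci and was left out of the comparisons. The names under which the maps of replicate 5 were deposited say WT, whereas their labels say sae2, and values without it are given in the closing part.

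Spo11 is related to type VI topoisomerases and starts meiotic recombination by cutting both DNA strands, with a Spo11 molecule linked covalently to each 5′ end. Most cuts fall in short hotspots in the open chromatin of promoters, and they are few near telomeres and centromeres. Each pair of homologous chromosomes needs at least 1 crossover to segregate in the first meiotic division, and a short chromosome has less DNA in which to place it. In budding yeast, short chromosomes are known to recombine more per unit of length.

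Hits were expressed as hits per 1000000 hits of the same library, HpM, so that a density is a share of the hits of that library and says nothing of the number of breaks per cell. The 5 SPO11+ replicates held 3177210, 8564017, 4502308, 3559541 and 3569290 hits, and the spo11-Y135F library held 2326054. Within the bins of I and VI the SPO11+ replicates had 142011 to 394816 hits, and the spo11-Y135F library had 72589. Over these 369 bins the SPO11+ replicates correlated with each other at r between 0.974 and 0.992, and with the spo11-Y135F library at r between -0.017 and -0.0055. Bins were not taken as independent, and these coefficients describe the agreement of libraries across positions.

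Both chromosomes received more SPO11+ hits per kb than any of the 13 longer ones. Chromosome VI had 126, 130, 126, 123 and 124 HpM per bin in replicates 1 to 5, with a mean of 126 ± 2.70 (SD, n = 5). Chromosome I had 115, 118, 117, 112 and 116 HpM per bin, with a mean of 116 ± 2.35. The 13 longer chromosomes together had 88.6 ± 0.305 HpM per bin. No replicate of the longer chromosomes came near the values of I or VI: VI ranked first and I second of 15 in all 5 replicates, and the next were X with 97.0 ± 1.67 and II with 96.9 ± 0.904 HpM per bin. The same bins of the spo11-Y135F library had 83.2 HpM on I, 85.6 on VI and 86.4 on the longer chromosomes, and there I ranked 15 and VI 12 of 15.

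The density of I and VI together divided by that of the longer chromosomes was 1.37, 1.40, 1.38, 1.34 and 1.36 in the 5 SPO11+ replicates, with a mean of 1.37 ± 0.0252. In the spo11-Y135F library this ratio was 0.978. The ratio was 1.42 ± 0.0280 for VI, with 0.991 in the spo11-Y135F library, and 1.31 ± 0.0256 for I, with 0.963 in the spo11-Y135F library. An exact two-sided sign-flip permutation test over the 5 replicates gave p = 0.063, which is the smallest value that 5 replicates can give, so that no ratio could pass 0.05. The same p, and an adjusted p of 0.063 after Benjamini-Hochberg correction, was found for each of the 11 ratios tested, since in each of them all 5 replicates lay on the same side of 1. All replicates measured the same chromosomes, so that these p-values and the SDs describe reproducibility and not the spread between chromosomes. The single spo11-Y135F library allowed no test against SPO11+. As a share of all hits, the bins of I and VI held 4.48% ± 0.0889 in SPO11+ cells and 3.12% in the spo11-Y135F library (95% Wilson interval 3.10 to 3.14%, counting error only). Chromosome I was below VI in all 5 replicates, with a ratio of I to VI of 0.921 ± 0.0131, and 0.972 in the spo11-Y135F library. This order rested on 1 bin: without chrVI:95001-96000, the strongest of VI, chromosome VI had 110 ± 2.92 HpM per bin and the ratio was 1.05 ± 0.0249, above 1 in 5 of 5 replicates. With the strongest bin of I left out too, it was 1.00 ± 0.0190, above 1 in 2 of 5 replicates.

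**Figure D1:**
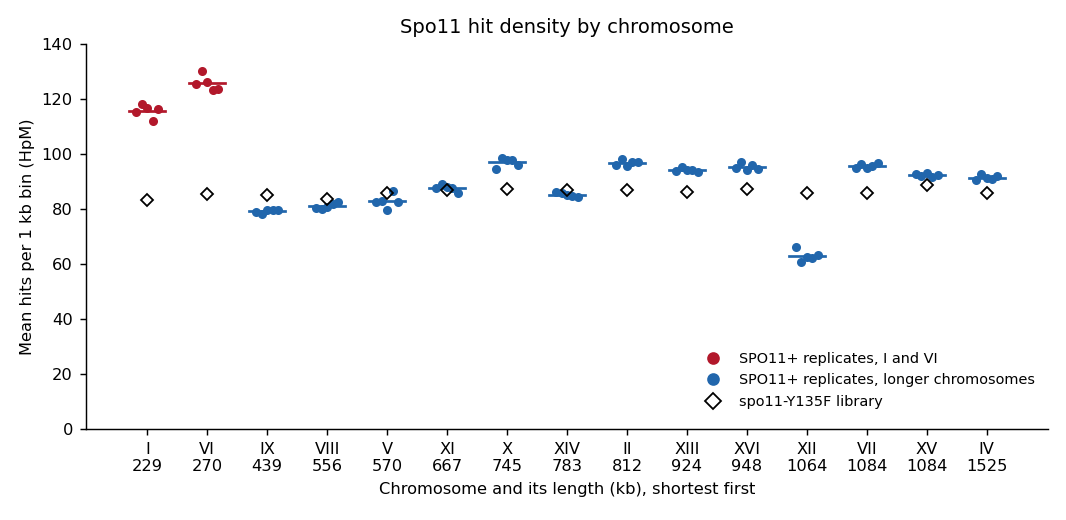
Mean hits per 1 kb bin (HpM, vertical axis) on each of 15 chromosomes, ordered from the shortest to the longest, with 1 point per SPO11+ replicate, a line at their mean and a diamond for the spo11-Y135F library. I and VI lie between 112 and 130 HpM in every SPO11+ replicate, whereas no longer chromosome exceeds 98.6 HpM and the diamonds stay between 83.2 and 88.6 HpM.

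A high mean density was not particular to I and VI when III was counted with its artificial loci. Chromosome III, which is the next in length at 321 kb and was left out of the comparisons for these loci, had 121 ± 3.21 HpM per bin, above I, and 85.1 HpM per bin in the spo11-Y135F library. No bins of III were left out for these loci, and its density without them was not computed. The median bin of III held 22.5 ± 4.73 HpM, near the 22.4 ± 4.39 HpM of the longer chromosomes. It was below the medians of I (36.4 ± 3.53 HpM) and VI (26.4 ± 4.25 HpM). Among the 13 longer chromosomes the density did not fall with length. IX, the shortest of them at 439 kb, had 79.3 ± 0.720 HpM per bin and ranked 14 of 15, and IV, the longest at 1525 kb, had 91.4 ± 0.896 HpM per bin. XII, which holds the rDNA, was lowest with 63.0 ± 1.96 HpM per bin. Density and the log10 of length had r = -0.528 and rho = -0.111 over all 15 chromosomes. Over the 13 longer ones alone they had r = 0.254 and rho = 0.363, so that the negative r came from I and VI. With III included, r was taken on length without the log. It was r = -0.478 with rho = -0.262 over 16 chromosomes, and r = -0.189 with rho = 0.0901 over the 14 other than I and VI. The r values with and without III therefore cannot be compared directly, whereas the rho values can. These coefficients are a description over chromosomes of the same libraries.

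Hits on I and VI were concentrated in few bins, as elsewhere in the genome, and the middle of the distribution was higher. The median bin held 36.4 ± 3.53 HpM on I and 26.4 ± 4.25 HpM on VI, against 22.4 ± 4.39 HpM on the longer chromosomes. The ratio of medians to the longer chromosomes was 1.66 ± 0.232 for I and 1.19 ± 0.0691 for VI, above 1 in 5 of 5 replicates for both, and 0.985 for each of them in the spo11-Y135F library. By the mean VI was the denser of the pair, and by the median I was. The lower quartile differed little, with 18.2 ± 4.88 HpM on I and VI and 17.02 ± 4.53 HpM on the longer chromosomes, a ratio of 1.07 ± 0.0229 within replicates. Of the 369 bins, 67 (27 on I and 40 on VI, 18.2%) had a SPO11+ mean at least 2 times the spo11-Y135F value, where 11.3% of the 10520 bins of all 15 chromosomes did, and 11.1% of the bins of the longer chromosomes. A further 212 bins (57.5%) had at most 0.5 times the spo11-Y135F value, where 67.2% of the bins of all 15 chromosomes did. The 29 strongest bins, 7.86% of those on I and VI, held 50% of their SPO11+ hits, compared with 608 bins or 5.99% on the longer chromosomes.

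The strongest bin, chrVI:95001-96000 between FRS2 and GAT1, held 3277, 3487, 3273, 3232 and 3758 HpM, with 75.2 HpM in the spo11-Y135F library. It carried more than 3 times the hits of any other bin of either chromosome, the next being chrVI:226001-227000 with 1050 ± 53.4 HpM. Without this bin and the strongest bin of I (chrI:68001-69000, 1026 ± 99.4 HpM) the density ratio to the longer chromosomes was 1.24 ± 0.0257, still above 1 in 5 of 5 replicates. The arms of I had equal densities, with 116 ± 3.05 HpM per bin on the left arm (120 bins) and 116 ± 3.00 on the right arm (41 bins). The left arm of VI had 115 ± 2.29 HpM per bin (118 bins), and its right arm had 140 ± 3.46 (90 bins), with 84.8 and 86.6 HpM in the spo11-Y135F library. The spo11-Y135F density of the right arm of I was lower, 73.2 HpM per bin, and some of its bins are partly masked. Counted over unmasked positions only, the density ratio of I and VI was 1.38 ± 0.0255.

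**Figure D2:**
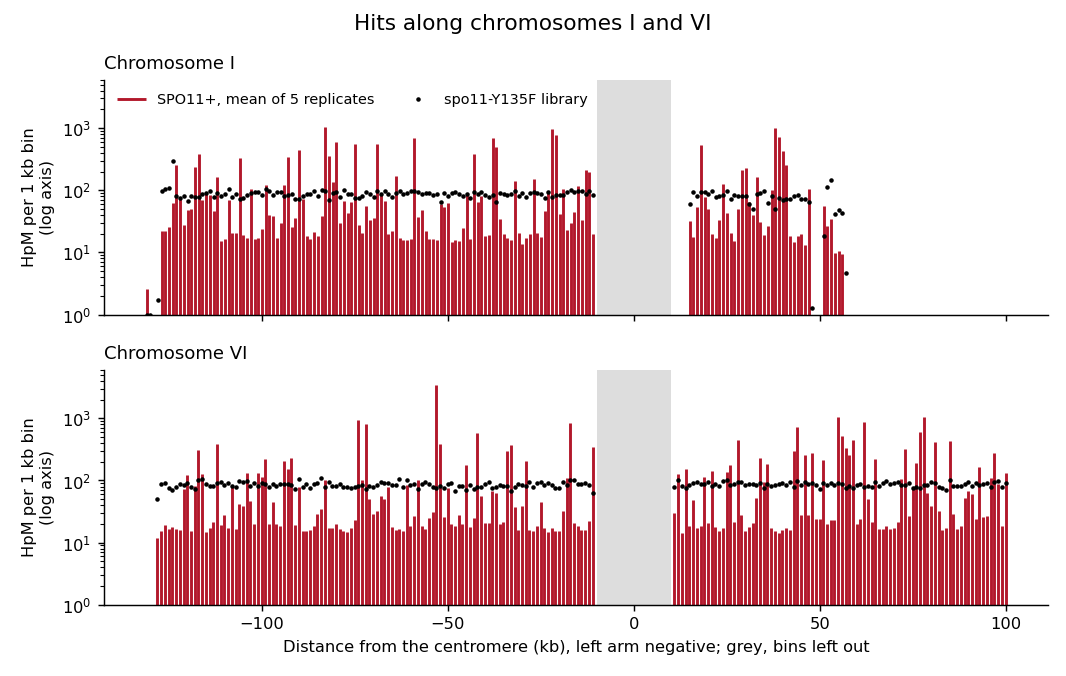
SPO11+ mean (bars) and spo11-Y135F value (dots) of each 1 kb bin of chromosomes I and VI, in HpM on a log axis, against the distance of the bin from the centromere in kb, with values below 1 HpM drawn at 1. Dots lie near 85.6 HpM in most bins, but on I they reach 294 HpM (chrI:27001-28000) and are lower in some bins toward its ends. Bars lie below the dots in most bins and reach 3406 HpM in the bin beside GAT1.

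On short chromosomes every position lies near an end, and therefore densities were also compared at the same distance from the end. All bins of I and VI lay within 140 kb of an end and together had 121 ± 2.41 HpM per bin. The longer chromosomes had 71.1 ± 1.14 HpM per bin within this zone and 95.9 ± 0.782 HpM beyond it. The value of I and VI was 1.71 ± 0.0522 times that of the zone and 1.27 ± 0.0214 times that of the interior, above 1 in 5 of 5 replicates for both. Each of the 13 longer chromosomes had less in its zone than I or VI, between 50.0 ± 2.69 HpM on XII and 81.9 ± 1.23 HpM on XIII. When bins were weighted by 10 kb windows of distance from the end, I and VI had 1.71, 1.87, 1.80, 1.74 and 1.76 times the density of the longer chromosomes, with a mean of 1.78 ± 0.0603. For VI this ratio was 1.82 ± 0.0628 and for I it was 1.71 ± 0.0593, and it was 0.975 for both together in the spo11-Y135F library.

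The excess was uneven along the arms. Between 20 and 30 kb from an end, I and VI had 50.2 ± 2.57 HpM per bin and the longer chromosomes 45.9 ± 5.47, a ratio of 1.10 ± 0.0990 that was above 1 in 4 of 5 replicates. The next window, from 30 to 40 kb, had 139 ± 4.33 HpM on I and VI and 47.6 ± 4.62 HpM on the longer chromosomes, a ratio of 2.94 ± 0.307. The 2 chromosomes did not share 1 profile. From 30 to 40 kb I had 190 ± 10.1 HpM and VI had 87.4 ± 4.03 HpM. From 40 to 50 kb I had 78.2 ± 4.08 HpM and VI had 187 ± 7.26 HpM. Ratios of 3.10 ± 0.219 and 2.95 ± 0.216 were measured from 60 to 70 kb and from 70 to 80 kb. From 80 to 90 kb the ratio was 1.05 ± 0.0400. There I had 103 ± 3.56 HpM, the longer chromosomes 68.2 ± 1.89 HpM and VI 52.3 ± 2.71 HpM. Of the 12 windows, 2 had less on I and VI than on the longer chromosomes in 5 of 5 replicates. From 100 to 110 kb they had 72.7 ± 4.05 HpM and the longer chromosomes 128 ± 5.10 HpM. From 120 to 130 kb, where only 10 bins of VI remain, they had 20.7 ± 4.21 HpM and the longer chromosomes 98.4 ± 2.44 HpM. A window of I and VI holds at most 40 bins. The 90 to 100 kb window, with 207 ± 5.96 HpM, contains the hotspot beside GAT1, and in this window I alone had 164 ± 6.72 HpM, VI had 250 ± 10.9 HpM and the longer chromosomes had 91.2 ± 2.97 HpM.

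**Figure D3:**
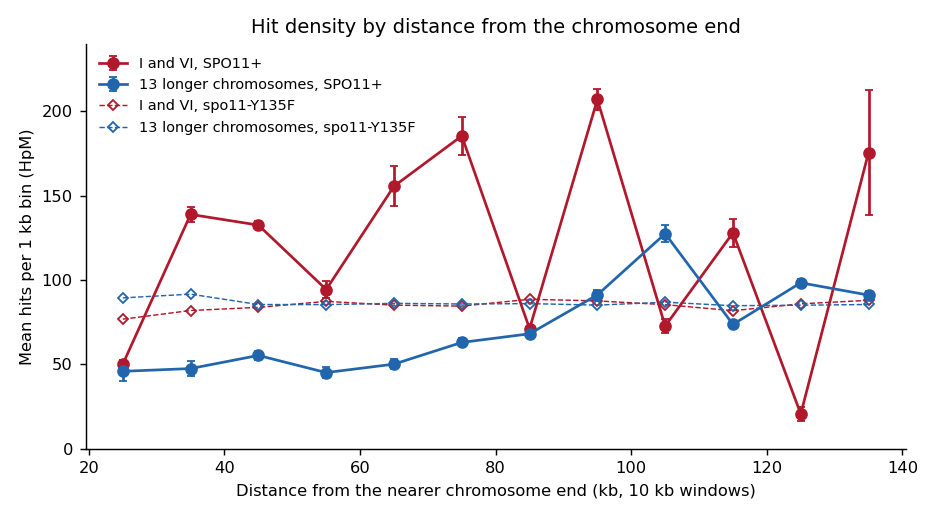
Mean hits per 1 kb bin (HpM) by distance from the nearer chromosome end in 10 kb windows, for I and VI and for the 13 longer chromosomes, with bars of 1 SD over 5 SPO11+ replicates and open diamonds for the spo11-Y135F library. I and VI stand at 94.4 to 185 HpM between 30 and 80 kb, where the longer chromosomes have 45.2 to 63.1 HpM. They lie below the longer chromosomes from 100 to 110 kb and from 120 to 130 kb, and above them in every other window.

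Hotspots were called in each replicate where the map, smoothed with a Hann window of 100 bp to each side, exceeded 3 times its mean. I and VI had 116, 121, 125, 120 and 118 hotspots, or 32.5 ± 0.919 per 100 kb, and the longer chromosomes had 24.5 ± 0.637 per 100 kb. The ratio was 1.29, 1.29, 1.43, 1.31 and 1.32, with a mean of 1.33 ± 0.0566. VI had 33.5 ± 1.11 hotspots per 100 kb and I had 31.3 ± 1.04, and the highest of the longer chromosomes, XIV, had 28.0 ± 0.475. Neighbouring hotspots lay closer together. The median distance between their peaks was 2402 ± 180 bp on I and VI, against 3072 ± 59.7 bp on the longer chromosomes, a ratio of 0.782 ± 0.0599 that was below 1 in 5 of 5 replicates.

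Hotspots of I and VI were also slightly stronger on average. They held 278 ± 15.8 HpM each on I and VI and 255 ± 10.97 HpM each on the longer chromosomes, a ratio of 1.09 ± 0.0364 that was above 1 in 5 of 5 replicates. This mean was within the range of the longer chromosomes, where VII had 293 ± 15.6 HpM. The median hotspot held 148 ± 14.3 HpM on I and VI and 115 ± 4.62 HpM on the longer chromosomes. By this median both lay above every longer chromosome, with 143 ± 14.8 HpM on I and 148 ± 14.9 HpM on VI. The highest of the longer ones was VII with 129 ± 6.18 HpM. Per kb of chromosome, hits inside hotspots came to 90.3 ± 4.95 HpM on I and VI and 62.6 ± 4.00 HpM on the longer chromosomes, a ratio of 1.44 ± 0.0455. Hotspots covered 8.75% ± 0.369 of the length of I and VI and 6.03% ± 0.273 of that of the longer chromosomes. They held 74.4% ± 2.96 of the hits on I and VI, and 70.6% ± 4.27 of those on the longer chromosomes.

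The excess was not limited to hotspots. Between them I and VI had 34.1 ± 3.55 HpM per kb and the longer chromosomes 27.7 ± 3.88 HpM per kb, a ratio of 1.21, 1.31, 1.18, 1.26 and 1.23 with a mean of 1.24 ± 0.0503. Outside the hotspots of the SPO11+ mean map, the spo11-Y135F library had 84.2 HpM per kb on I and VI and 86.0 HpM per kb on the longer chromosomes, a ratio of 0.979. Outside hotspots I had 35.9 ± 3.62 HpM per kb and VI had 32.7 ± 3.50, while the means of the longer chromosomes lay between 26.2 HpM per kb on XII and 29.0 on XI.

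**Figure D4:**
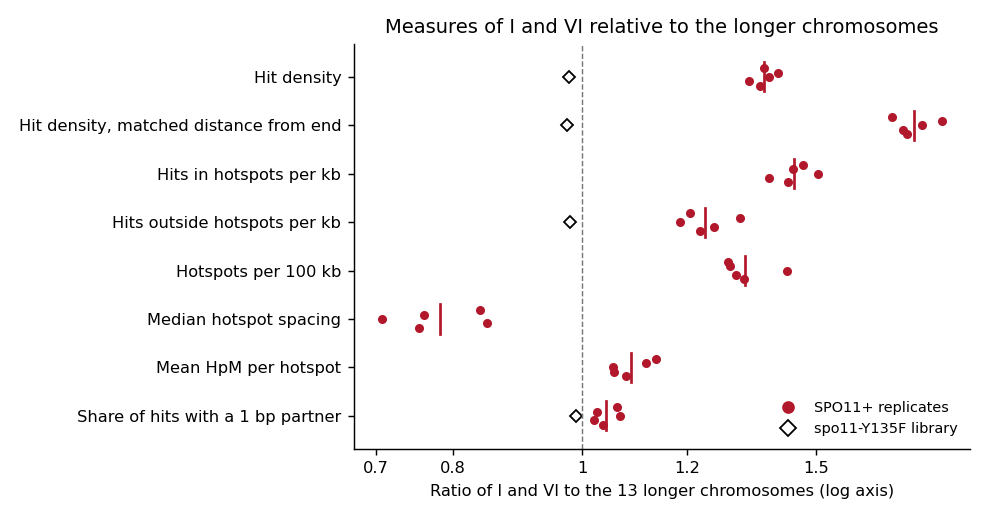
Ratio of I and VI to the 13 longer chromosomes for 8 measures, on a log axis, with 1 point per SPO11+ replicate, a line at the mean and a diamond for the spo11-Y135F library where it has a value of use. All 5 points lie above 1 for every measure except hotspot spacing, where all lie below 1, and the diamonds lie between 0.975 and 0.989.

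On the mean map of the 5 replicates there were 52 hotspots on I and 67 on VI, and 2498 on the longer chromosomes. Their strengths ranged from 10.5 to 1758 HpM on I and from 23.9 to 3749 HpM on VI. Of the 262 strongest hotspots of the 15 chromosomes, 15 lay on I and VI, which was 12.6% of their hotspots, compared with 9.89% of those of the longer chromosomes. The 16 strongest hotspots of I and VI, 8 on each, are described below in order of strength.

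The leading hotspot of VI (chrVI:95136-96485) lay between the divergent genes FRS2, which encodes a subunit of phenylalanyl-tRNA synthetase, and GAT1, which encodes a GATA-type activator of nitrogen-regulated genes. It held 3655, 3893, 3555, 3518 and 4124 HpM in the 5 SPO11+ replicates and 101 HpM in the spo11-Y135F library, and was number 10 in strength on the 15 chromosomes. It alone had more hits than the next 3 hotspots of VI together. The second (chrVI:203397-204229) lay between LSB3, for a protein of actin patches, and HIS2, for an enzyme of histidine synthesis. It held 1402, 1240, 1289, 835 and 1260 HpM, so that replicate 4 stood below the others, and the spo11-Y135F library had 74.8 HpM there. The third (chrVI:225973-226945) was unusual in peaking inside an annotated reading frame, YFR035C, beside PHO4, the activator of phosphate-starvation genes. It held 1050 ± 53.8 HpM and 81.3 HpM in the spo11-Y135F library.

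HAC1, which encodes the transcription factor of the unfolded protein response, had a hotspot on each side. The one before its start (chrVI:74593-75061), shared with RIM15, a kinase needed for entry into meiosis, held 943 ± 104 HpM and 43.9 HpM in the spo11-Y135F library. The one after its end (chrVI:76487-76800), before AGX1, which encodes an aminotransferase that makes glycine, held 586, 813, 868, 523 and 784 HpM. A hotspot beside the tyrosine tRNA gene SUP6 (chrVI:210119-210901) lay between CDC14, the phosphatase of mitotic and meiotic exit, and PTR3, of the amino acid sensor of the plasma membrane. It held 835 ± 66.1 HpM, with 68.4 HpM in the spo11-Y135F library. The hotspot between SEC4, for a Rab GTPase of secretion, and VTC2 (chrVI:131348-131770) varied most of the 16 between replicates relative to its mean, with 788, 957, 548, 1084 and 672 HpM, and still the lowest of these was above the 47.7 HpM of the spo11-Y135F library. The eighth, between FAB1 and CSS2 (chrVI:192359-192643), held 667 ± 94.9 HpM.

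The leading hotspot of I (chrI:189713-191646) had its peak before YAT1, which encodes a mitochondrial carnitine acetyltransferase, and after MST28, a gene of the membrane-protein family DUP240. It ran on past its peak, and the bins chrI:190001-191000 and chrI:191001-192000 had 730 ± 97.3 and 433 ± 93.4 HpM. How much of it lay inside YAT1 was not measured. The whole hotspot held 1660, 1824, 1530, 1827 and 1948 HpM, with 142 HpM in the spo11-Y135F library. It was the widest of the 16, at 1934 bp, and part of it is masked, with 668 of 1000 positions usable in the bin of its peak. The second (chrI:67979-68676) lay between CLN3, for a cyclin of G1, and CYC3, for cytochrome c haem lyase, and held 1026, 966, 949, 876 and 1133 HpM. Its peak lay more than 500 bp before the start codon of CLN3, since no hotspot peak fell within that distance and this stretch had 33.2 ± 5.16 HpM. Another hotspot in the neighbourhood (chrI:70860-71565) lay between CYC3 and CDC19, which encodes pyruvate kinase, and held 619 ± 54.4 HpM.

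DEP1, which encodes a subunit of the histone deacetylase complex Rpd3L, was flanked by hotspots on both sides. The one it shares with SYN8, for an endosomal SNARE (chrI:129018-129310), held 767, 965, 893, 841 and 937 HpM and 25.4 HpM in the spo11-Y135F library. The one before CYS3, for cystathionine gamma-lyase (chrI:130481-130769), held 692 ± 74.5 HpM and 23.2 HpM in the spo11-Y135F library. The remaining named hotspots of I were those between MYO4, a class V myosin that carries ASH1 mRNA, and FRT2 (chrI:92294-92890, 667 ± 65.5 HpM), before CCR4, the catalytic deadenylase (chrI:113372-113618, 564 ± 46.4 HpM), and between RBG1 and FUN12, which encodes initiation factor eIF5B (chrI:76176-76443, 510 ± 53.1 HpM).

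**Figure D5:**
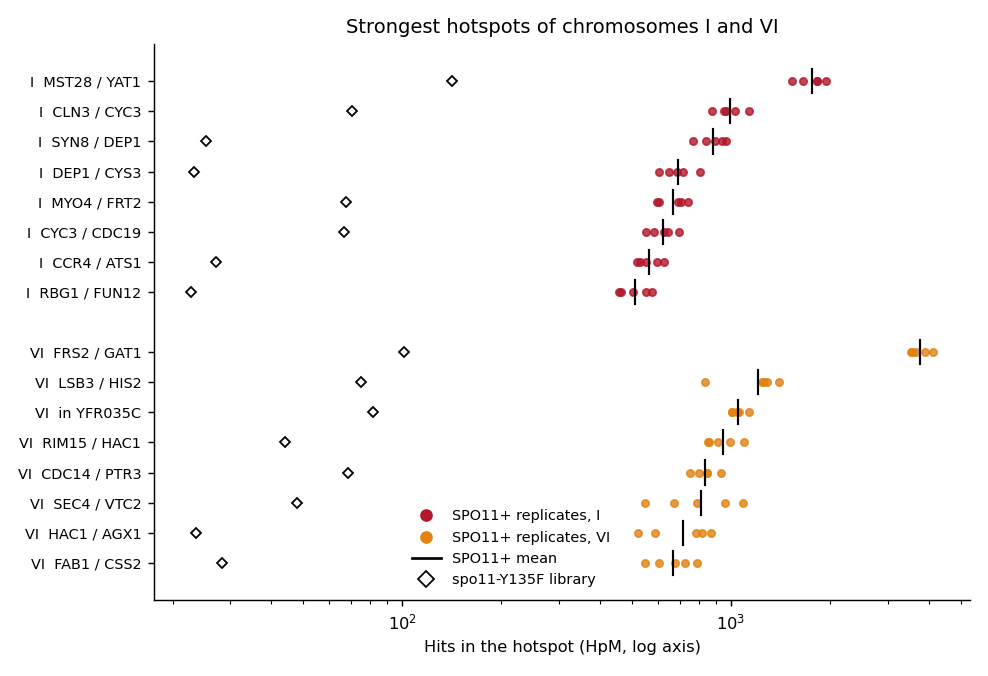
Hits (HpM, log axis) in the 8 strongest hotspots of chromosome I and of chromosome VI, named by the neighbouring genes or the gene that holds the peak, with 1 point per SPO11+ replicate, a line at the mean and a diamond for the spo11-Y135F library. The lowest SPO11+ point is 455 HpM and the highest diamond is 142 HpM, and the hotspot beside GAT1 stands apart on VI at 3518 to 4124 HpM.

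Long stretches without a hotspot were rarer. The median gap between neighbouring hotspots of the mean map was 2.09 kb on I and VI and 2.85 kb on the longer chromosomes. Only 1 of 115 gaps on I and VI (0.870%) exceeded 10 kb, compared with 162 of 2472 (6.55%) on the longer chromosomes, of which the longest was 44.3 kb. The single long gap of VI was 10.6 kb (chrVI:119351-129957) and spanned SMC1, for a subunit of cohesin, and BLM10, for a proteasome activator. It had 20.1 ± 4.11 HpM per kb, and 85.2 HpM per kb in the spo11-Y135F library. The longest gap of I was 6.99 kb (chrI:92891-99878), over FRT2, SAW1, of single-strand annealing, and DRS2, a phospholipid flippase, with 27.9 ± 4.10 HpM per kb and 84.8 HpM per kb in the spo11-Y135F library. The next on VI were 9.34 kb over MIL1 and RIM15, with 22.7 ± 3.72 HpM per kb, and 7.06 kb over FAB1, with 19.6 ± 4.53 HpM per kb. The next on I were 6.11 kb over SWH1, with 26.5 ± 3.96 HpM per kb, and 6.07 kb over MAK16 and LTE1, with 31.8 ± 4.40 HpM per kb.

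With respect to genes, the hits of I and VI lay where Spo11 hits usually lie. Intergenic regions (IGRs) that hold a promoter, divergent or tandem, made up 24.8% of the length of I and VI and took 73.2% ± 2.06 of the SPO11+ hits and 23.9% of the spo11-Y135F hits. On the longer chromosomes they made up 21.7% of the length and took 72.6% ± 3.24 of the SPO11+ hits. Divergent IGRs had 495 ± 25.4 HpM per kb on I and VI and 406 ± 21.9 on the longer chromosomes, a ratio of 1.22 ± 0.0285. Tandem IGRs had 284 ± 11.8 HpM per kb on I and VI and 226 ± 9.70 on the longer chromosomes, a ratio of 1.25 ± 0.0439. Both ratios were above 1 in 5 of 5 replicates, and in the spo11-Y135F library they were 0.914 and 0.929.

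The relative difference in mean density was larger inside genes. Intragenic positions had 43.7 ± 2.83 HpM per kb on I and VI and 30.7 ± 3.63 on the longer chromosomes, a ratio of 1.43 ± 0.0859 with 5 of 5 replicates above 1, and 0.995 in the spo11-Y135F library. Convergent IGRs, which lie between the ends of genes and hold no promoter, went the other way, with 31.3 ± 3.24 HpM per kb on I and VI and 35.0 ± 2.66 on the longer chromosomes, a ratio of 0.895 ± 0.0284 with 0 of 5 replicates above 1. They made up 2.55% of I and VI and 4.08% of the longer chromosomes. The ratios by region type were not tested. Single strong hotspots were part of the intragenic mean. On VI those peaking inside YFR035C, PHO4 and YFL015C held 1050, 667 and 544 HpM, and the ratio without them was not computed. The median hotspot peaking inside a gene held 73.6 HpM on I and VI and 141 HpM on the longer chromosomes. Of the 119 hotspots on I and VI, 62 peaked in tandem IGRs (52.1%), 44 in divergent IGRs (37.0%), 12 inside genes (10.1%) and 1 in a convergent IGR. On the longer chromosomes 49.2% peaked in tandem IGRs, 42.7% in divergent IGRs and 6.93% inside genes. Genes were no denser on I and VI, with 47.2 per 100 kb against 50.8 per 100 kb on the longer chromosomes.

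Counted by gene, 115 of 173 genes of I and VI (66.5%) had a hotspot peak within the 500 bp before the start codon, where 55.7% of the 5394 genes of all 15 chromosomes and 55.4% of those of the longer chromosomes did. These 500 bp held a median of 123 HpM for genes of I and VI and 66.2 HpM for genes of the longer chromosomes, and the spo11-Y135F values were 43.9 and 45.1 HpM. Both chromosomes had a similar share, 47 of 72 genes (65.3%) on I and 68 of 101 (67.3%) on VI.

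The genes of I and VI were also grouped by their roles, and the counts of these short lists stand beside the 66.5% of all genes of both chromosomes. Neighbouring genes can share a hotspot, as RIM15 and HAC1 did, and some of the 500 bp windows reach into a neighbouring gene. Counts of genes are therefore not counts of separate hotspots. Among genes of transcription factors and sensors 6 of 7 had such a hotspot, with a median of 607 HpM over the 7 genes. GAT1 led with 2918 ± 233 HpM in its 500 bp, followed by HAC1 with 881 ± 100 HpM. Among genes for the metabolism of amino acids, nucleotides and sulphur it was 10 of 12, with a median of 247 HpM, led by AGX1 with 737 ± 153 HpM and CYS3 with 712 ± 77.5 HpM. GDH3, for a glutamate dehydrogenase near the left end of I, had no hotspot peak in its 500 bp, which held 20.7 ± 2.56 HpM. Hotspots between FLO9 and GDH3 lay farther from its start.

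Genes of meiosis and sporulation had a hotspot in 5 of 7 cases, with a median of 136 HpM. RIM15 had 834 ± 93.3 HpM and OSW7, for an outer spore wall protein, had 412 ± 67.0 HpM. MSH4, whose product stabilises crossover intermediates, had 255, 393, 296, 434 and 276 HpM and 46.9 HpM in the spo11-Y135F library. Genes of chromosome structure and repair had one in 9 of 12 cases, with a median of 88.7 HpM. FUN30, for a remodeller that helps the resection of breaks, had 413 ± 50.5 HpM, and RSC8, of the RSC remodelling complex, had 390 ± 21.7 HpM. SMC1 had 195 ± 21.0 HpM, although the gene itself lies in the longest gap of VI.

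Cell cycle genes had a hotspot in 8 of 13 cases, with a median of 107 HpM. This list counts CDC19, which encodes pyruvate kinase and had a hotspot, with 394 ± 50.9 HpM. CDC14 had 452 ± 46.0 HpM, and CDC26, of the anaphase-promoting complex, had 442 ± 37.9 HpM in its 500 bp without a peak there. Genes of the cytoskeleton and of protein folding had one in 5 of 7 cases, with 417 ± 71.8 HpM before MDJ1, for a mitochondrial chaperone, and 254 ± 39.6 HpM before ACT1, for actin. Genes of translation and the ribosome had one in 4 of 7 cases, with 529 ± 54.9 HpM before FUN12 and 393 ± 31.4 HpM before FRS2, which had no peak within 500 bp. In all, 47 of the 65 listed genes with their 500 bp in the bins (72.3%) had a hotspot there, beside 66.5% of all 173 genes of I and VI, and the lists were not tested against the other genes of these chromosomes.

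At the scale of single nucleotides, hits on I and VI had the paired form of Spo11 cuts, in which the ends on opposite strands lie 1 bp apart in the maps. Watson and Crick hits of the SPO11+ replicates correlated best at this offset in 5 of 5 replicates, with r = 0.712 ± 0.0195, and with r = 0.129 ± 0.0192 at 0 bp. Across the longer chromosomes r at 1 bp was 0.813 ± 0.0206. In the spo11-Y135F library r at 1 bp was -0.016 on I and VI. The share of hits at sites with a partner 1 bp away on the other strand was 66.8% to 80.5% over the SPO11+ replicates on I and VI, with a mean of 70.5% ± 5.67, and 67.6% ± 6.19 on the longer chromosomes. Within each replicate the share was higher on I and VI, with a ratio of 1.04 ± 0.0210. The spo11-Y135F library had 9.74% on I and VI and 9.85% on the longer chromosomes. The highest share belonged to replicate 2, which was the deepest, and the part of depth in it was not tested.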

How the data were processed

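Maps of CC-seq hits from meiotic SK1 sae2 cells were used, 6 SPO11+ libraries of 5 biological replicates and 1 library of spo11-Y135F. The authors aligned paired reads with Bowtie2 (version not given in the sources used here) to Cer3H4L2, a yeast genome build that includes the modified HIS4 and LEU2 loci of chromosome III, assigned the protein-linked 5′ end of each read 1 to its nucleotide with terminalMapper, and took out rDNA, telomeres, retrotransposons and their long terminal repeats. What they deposited for each library are raw counts of hits at each nucleotide of either strand. A deposited average map in HpM was not used here.

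Counts of both strands were scaled to 1000000 hits of each library and summed in 1 kb bins. Runs of more than 200 bp without a hit in any library were taken as masked. Centromere positions of the longer chromosomes were rounded to 100 bp, from general knowledge of the assembly. A hotspot had to stay above the threshold of 3 times the mean for 25 bp or more, and hotspots closer than 200 bp were merged. Gene positions and strands came from a RefSeq gene table of assembly R64 with 6002 stranded genes, none of whose coordinates is printed. Of shifts of this table up to 60 bp, 40 bp maximised the promoter IGR share of hits on VI (74.1%, against 73.4% unmoved), and none raised it on I. Ratios were formed within each replicate and tested by exact two-sided sign-flip permutation with Benjamini-Hochberg adjustment over 11 ratios. Simulated maps had chromosomes of equal length and hotspots of a single width and strength, far above a flat background. On these maps all planted hotspots were found (100% of 940), and a planted density ratio of 1.13 was recovered as 1.13. They do not show how well weak hotspots are found in the real maps.

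The regions, gene lists and tests were chosen with earlier results of these data known. The named hotspots were the 8 with the highest mean HpM on each chromosome, the named gaps the longest on each, and the named genes the 2 with the highest HpM of each list. Other named bins, gaps and genes were chosen after their values were seen. Replicates were biological replicates by their labels, which do not say how they were grown, and 95% Wilson intervals cover counting error only. Python 3.11.15, numpy 2.4.6, scipy 1.17.1, pandas 2.3.3 and matplotlib 3.10.9 were used.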

Additional observations from a re-analysis of the deposited data

Results flagged for a closer look

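A gap from the other replicates was looked for in 41 measures of 5 replicates each, where chance alone would set about 1 in 20 apart, or 2.05 in all, and 2 were found. Replicate 3 had 1.43 times as many hotspots per 100 kb on I and VI as on the longer chromosomes, while the other replicates had 1.29 to 1.32 times as many. Replicate 4 had 835 HpM in the hotspot between LSB3 and HIS2, while the others had 1240 to 1402 HpM. The density ratio of I and VI to the longer chromosomes lay above 1 in each SPO11+ replicate (1.34 to 1.40) and below 1 in the spo11-Y135F library (0.978), a difference that was not tested because there is 1 spo11-Y135F library. Chromosome III, with its 2 artificial loci, is in no comparison above. Trimmed in the same way, it had 121 ± 3.21 HpM per bin in SPO11+ cells (117 to 125 over the replicates), 1.37 times the longer chromosomes, and 85.1 HpM per bin in the spo11-Y135F library. No bins were left out for the artificial loci.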

How the results depend on the processing

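No ratio to the longer chromosomes crossed 1 under any alternative run. The ratio of I to VI (0.921) did: it was 1.05 without the strongest bin of VI and 1.00 without the strongest bin of each, both chosen after seeing the data. The density ratio of I and VI to the longer chromosomes (1.37) became 1.44 with 30 kb left out at each end, 1.23 with nothing left out at ends or centromeres, 1.53 without the 5% of bins with the highest values on each side, 1.33 without XII, 1.40 when divided by the spo11-Y135F ratio and, in an alternative chosen after seeing the data, 1.24 without the strongest bin of I and of VI. It moved by less than 1 SD in the other 6 alternatives. The ratio at matched distance from the end (1.78) became 1.59 with medians and 1.61 without these bins, the last also chosen after seeing the data. With a hotspot threshold of 5 times the mean, hotspots per 100 kb had a ratio of 1.41, their spacing 0.702 and their mean strength 1.04. Spacing had a ratio of 0.847 with the hotspots of the mean map, and mean strength 1.14 with 30 kb left out at each end. Leaving out each replicate in turn gave 1.36 to 1.38 for density, 1.75 to 1.79 at matched distance, 0.916 to 0.924 for I against VI, 1.30 to 1.34 for hotspots per 100 kb, 0.765 to 0.801 for spacing, 1.08 to 1.10 for mean strength, 1.22 to 1.25 outside hotspots, 1.04 to 1.05 for the share of paired hits, and 65 to 68 bins at 2 times the spo11-Y135F value. Why these values moved was not tested. No paired analysis was possible because the spo11-Y135F group has a single library. Thinned to the depth of the shallowest replicate, the ratio of hotspots per 100 kb was 1.32. Single hotspots of the spo11-Y135F library rest on few hits, and its values there are a level of background only.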

Other observations

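The spo11-Y135F library had 3 clusters of hits on chromosome I that met the same hotspot rule, and 0 on VI and 8 on the 13 longer chromosomes. Of these 3, 2 lay inside FLO9 and 1 inside FLO1, genes for flocculins, the cell wall proteins that make yeast cells clump and that carry internal repeats. The largest (chrI:26903-27623, in FLO9) held 68.6, 32.5, 77.3, 54.5 and 71.7 HpM in the SPO11+ replicates, and 291 HpM or 676 hits in the spo11-Y135F library. The cluster in FLO1 (chrI:204250-204445) held 23.5 ± 7.04 HpM in SPO11+ cells, and 94.2 HpM or 219 hits in the spo11-Y135F library. The smallest (chrI:25366-25412, in FLO9) held 2.18 ± 0.644 HpM in SPO11+ cells, and 15.5 HpM or 36 hits in the spo11-Y135F library. None of the 3 overlapped a SPO11+ hotspot, and whether reads of other flocculin genes were placed there was not tested.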
